A study of Mus musculus with 20 samples.

Results

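The interferon regulatory factors and Stat2 measured here are 8 genes, Irf1, Irf2, Irf3, Irf5, Irf7, Irf8, Irf9 and Stat2, of 18194 genes on the array. Members were taken by name: each probe set had to be annotated to exactly 1 of these symbols, and the brightest probe set stood for its gene. The 8 genes had 14 probe sets in all, 4 of them for Irf3 and 2 each for Irf5, Irf8 and Stat2. Expression was measured in cortex of mice with experimental autoimmune encephalomyelitis (EAE), a model of multiple sclerosis in which immunisation with a myelin peptide leads to ascending paralysis. The groups were motor cortex of 6 EAE mice and of 4 healthy mice, and sensory cortex taken from each of those animals, which gave 20 arrays. All 10 mice were female C57Bl6 animals of 8 to 12 weeks. EAE mice were immunised with MOG35-55 peptide, with 100 µg in the rear flanks and 50 µg near the base of the tail, and were given pertussis toxin at 400 ng on day 0 and again on day 3. Their average grades were 2.50 to 3.50, and the labels give day 18 to 21 of EAE for each sample but day 21 for collection in the protocol. Healthy mice lived in these cages too, and the labels describe no sham immunisation, so disease and immunisation cannot be told apart. Each of 2 cohorts held 3 EAE and 2 healthy mice, and cohort was a term in the limma fits of EAE against healthy mice. The exact permutation tests and the counts of groups that do not overlap took no account of cohort. Both arrays processed on a second day were healthy, namely motor cortex of healthy mouse 4 and sensory cortex of healthy mouse 1. All EAE arrays were processed on the first day, so processing day and condition are partly confounded.

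Interferons signal through receptors that activate Janus kinases and STAT proteins. Type I interferons assemble a complex that holds Stat2 and Irf9 and binds interferon-stimulated response elements (ISRE) in the promoters of antiviral genes, whereas interferon gamma acts at gamma-activated sites (GAS) and induces Irf1. Irf3, Irf5 and Irf7 sit upstream, where sensors of nucleic acids and Toll-like receptors switch them on to drive interferon and cytokine genes. Irf8 is a lineage factor of microglia and other myeloid cells, and Irf2 competes with Irf1 for shared sites. In the brain these factors are known from antiviral defence and from the response of glia to infiltrating T cells.

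Promoter stretches are shown for the 4 members whose sequence upstream of the start holds an element of either kind, since such elements are the letters that the complexes described above are known to bind. The sequences are RefSeq's, build GRCm38.p6, plus strand, 5′ to 3′. Capitals mark every match found on either strand within 250 bases before an annotated start, where the ISRE was spelled as GAAA, any 2 bases and GAAA, and the GAS as TTC, any 3 bases and GAA. The Irf2 stretch lies at chr8:46739495-46739549, the Irf8 stretch at chr8:120736167-120736233, the Stat2 stretch at chr10:128270256-128270305 and the Irf1 stretch at chr11:53769904-53769952.
Irf2: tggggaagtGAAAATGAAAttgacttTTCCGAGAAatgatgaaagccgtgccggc
Irf8: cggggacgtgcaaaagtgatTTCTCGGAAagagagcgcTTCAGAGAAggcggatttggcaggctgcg
Stat2: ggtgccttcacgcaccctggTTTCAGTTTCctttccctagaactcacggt
Irf1: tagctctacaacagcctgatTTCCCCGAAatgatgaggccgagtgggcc
Irf2 had 1 ISRE match and 1 GAS match, Irf8 had 2 GAS matches, Irf1 had 1 GAS match, and Stat2 had 1 ISRE match, which reads in the reverse direction. The letters of Irf3, Irf5, Irf7 and Irf9 held neither motif in the 250 bases searched before each annotated start. For Irf5 the window began at 29526375, inside the gene, so the bases before the gene's first position, 29526130, were not searched. The Irf7 window, 141266375 to 141266674, lay partly inside its gene, which ends at 141266499. Among 32851 promoter windows of the same length, 2.98% held the ISRE letters and 7.02% the GAS letters. A match describes letters and was not tested as a binding site.

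None of the 8 genes passed the threshold between EAE and healthy mice, in either region or in the mean of both. Irf7, Irf1 and Irf9 had the highest differences, with Irf7 in sensory cortex at 1.53-fold, Irf9 at 1.47-fold and Irf1 at 1.39-fold. On their brightest probe sets, Irf2, Irf3, Irf5, Irf8 and Stat2 were within 1.15-fold in both regions. A second Irf8 probe set stood higher in EAE in motor cortex, by 0.24 (log2, limma unadjusted p = 0.00586, adjusted 0.181 over all probe sets). A gene was called where limma's p, adjusted by Benjamini-Hochberg over all 18194 genes, was under 0.05. By that rule 0 of 8 members were called in motor cortex, against 2.25% of all genes, 0 of 8 in sensory cortex, against 2.41%, and 0 of 8 in the mean of both regions, against 7.87%. At an unadjusted limma p under 0.05, 2 members stood higher in EAE in motor cortex (Irf1 and Irf7), 3 in sensory cortex and 3 in the mean of both (Irf1, Irf7 and Irf9 in each). The corresponding shares of all genes that stood higher at that level were 5.6%, 6.8% and 10.2%. By the exact permutation test over all 210 splits of the mice, two-sided with a smallest possible p of 0.00476, 1, 3 and 2 of the 8 members were under 0.05 in motor cortex, sensory cortex and the mean of both, against 14.3%, 16.8% and 22.8% of all genes. The median log2 change of the members was 0.11 in motor and 0.14 in sensory cortex, against -0.01 and 0.00 over all genes.

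Array medians lay between 8.22 and 8.32 on the log2 scale, arrays within a group correlated at 0.988 to 0.998, and precision is limited by how many arrays there were. No detection calls were used, so whether a dim probe set stood above background was not known. Probe sets bind with different strength, and levels are therefore compared between samples and not between genes. The excitatory cortical neuron markers averaged 11.4 to 12.0 on the log2 scale in every array, and 0 of 3 passed the test between EAE and healthy mice in either region. In bulk tissue, fewer cells of a type and less RNA per cell cannot be told apart.

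Irf7, the factor that amplifies type I interferon production after it has been induced, lies on chromosome 7 from 141263183 to 141266499. Its log2 expression in motor cortex was 8.31 at the lowest, 8.48 at the median and 8.86 at the highest of 6 EAE mice, against 8.21, 8.05, 8.28 and 8.21 in the 4 healthy mice. Every EAE array stood above every healthy array, although the lowest EAE array exceeded the highest healthy one by little. The difference was 0.33 ± 0.10 (SE, log2), with a 95% interval of 0.12 to 0.54, a limma adjusted p of 0.114 and an exact permutation p of 0.019.
Sensory cortex gave 8.41, 8.66 and 9.23 as lowest, median and highest in EAE mice, against 8.51, 7.89, 8.03 and 8.08 in healthy mice. Here the groups overlapped, because healthy mouse 1 stood as high as the lower EAE mice, while EAE mice 2, 3 and 5 stood above all healthy mice. That healthy array is one of 2 that were processed on a second day; without it the difference was 0.74, with a limma adjusted p of 0.107. With it the difference was 0.62 ± 0.19 (SE, log2; 95% interval 0.21 to 1.03), with a limma adjusted p of 0.116 and an exact permutation p of 0.0381.
The 4 group means of Irf7 ran in the order 8.74 ± 0.36 in sensory cortex of EAE mice, 8.52 ± 0.21 in motor cortex of EAE mice, 8.19 ± 0.10 in motor cortex of healthy mice and 8.13 ± 0.27 in sensory cortex of healthy mice (SD, n = 6 and 4). With the mouse as a block, the motor minus sensory difference of Irf7 was -0.23 ± 0.09 in EAE mice and 0.06 ± 0.11 in healthy mice (SE, log2). The limma adjusted p was 0.167 and 0.882, and the unadjusted limma p was 0.0224 and 0.573. As the mean of both regions the Irf7 change was 0.47 ± 0.13 (SE, log2) with a limma adjusted p of 0.0527, just outside the threshold, and the range of that adjusted p over the alternative settings was 0.0144 to 0.414. The lowest came from a fit of all 20 arrays with the mouse as a random block. Within cohorts the change was 0.47 in cohort 1 and 0.48 in cohort 2.

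**Figure D1:**
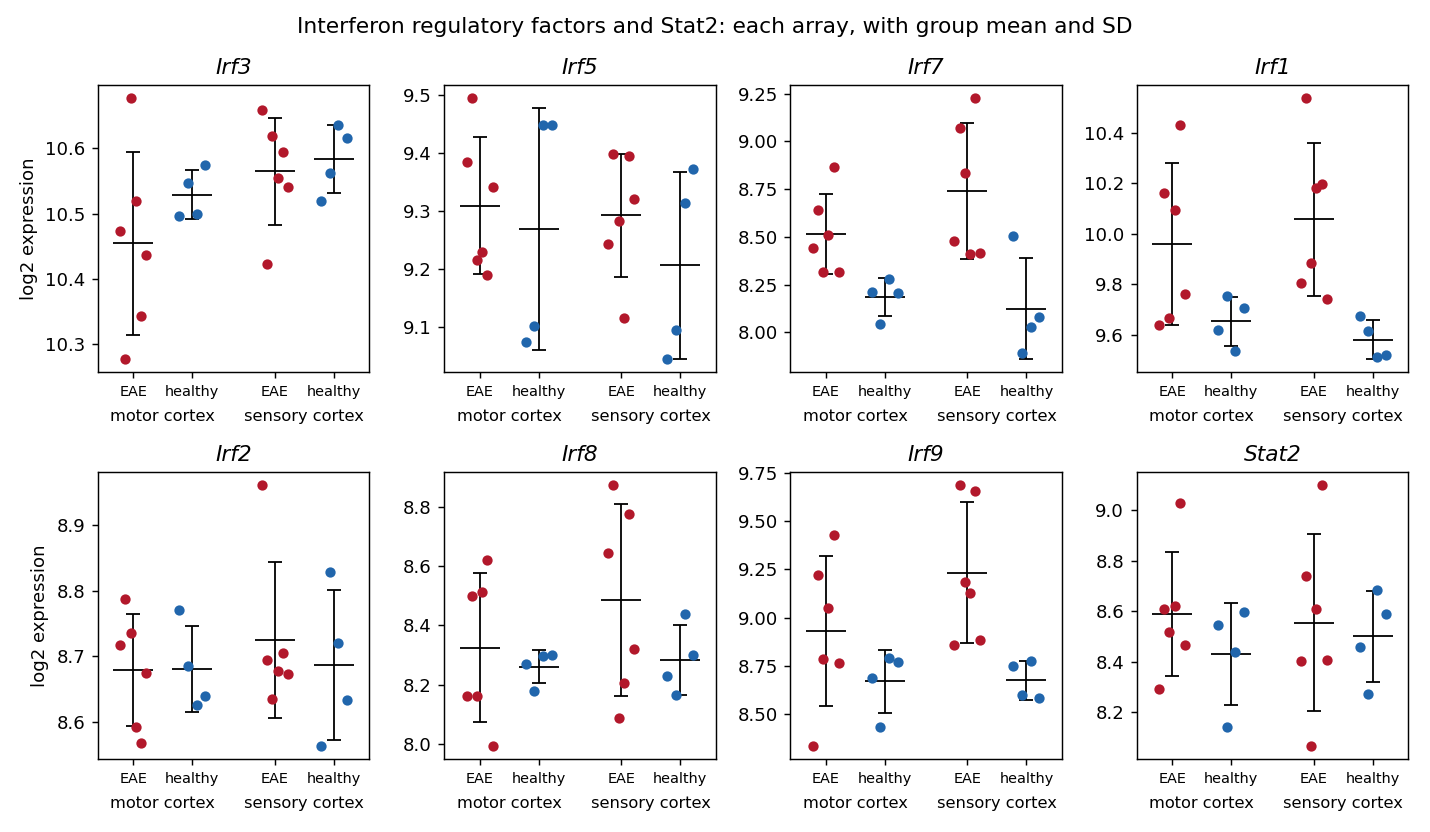
Log2 expression of each of the 8 genes (vertical axis, scaled for each gene) in every array, with EAE mice (red, n = 6) left of healthy mice (blue, n = 4) for motor and then sensory cortex; the black marks are the group mean and SD. The EAE and healthy points of Irf7 in motor cortex and of Irf1 and Irf9 in sensory cortex do not overlap, while those of the other 5 genes do in both regions.

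Irf1, induced by interferon gamma and itself an activator of antigen presentation genes, lies on chromosome 11 from 53770014 to 53778374. Its log2 expression in motor cortex was 9.64, 9.93 and 10.43 at the lowest, median and highest of the EAE mice, against 9.62, 9.76, 9.54 and 9.71 in the healthy mice. EAE mice 1 and 3 lay among the healthy mice, and the other 4 EAE mice stood above them. The change was 0.30 ± 0.14 (SE, log2; 95% interval 0.01 to 0.60), with a limma adjusted p of 0.301 and an exact permutation p of 0.0905.
In sensory cortex the same gene gave 9.74, 10.03 and 10.54 in EAE mice, against 9.67, 9.62, 9.51 and 9.52 in healthy mice. No healthy mouse reached the lowest EAE mouse, and EAE mouse 2 was the highest of all. The difference of 0.48 ± 0.14 (SE, log2; 95% interval 0.16 to 0.79) had a limma adjusted p of 0.113 and an exact permutation p of 0.019. Irf1 differed by 0.14 in cohort 1 and 0.47 in cohort 2 in motor cortex, and by 0.43 and 0.52 in sensory cortex.

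Irf2, which occupies Irf1 sites as a repressor in many settings, lies on chromosome 8 from 46739745 to 46847458. In motor cortex it measured 8.57, 8.70 and 8.79 as lowest, median and highest in EAE mice, against 8.77, 8.69, 8.63 and 8.64 in healthy mice. The sensory values were 8.64, 8.69 and 8.96 in EAE mice, against 8.56, 8.83, 8.72 and 8.63 in healthy mice. The groups overlapped throughout, with EAE mouse 1 as a single high array in sensory cortex. Differences were 0.00 ± 0.05 (motor) and 0.04 ± 0.08 (sensory; log2, each with its SE), with 95% intervals of -0.11 to 0.11 and -0.13 to 0.20 and limma adjusted p of 0.994 and 0.806.

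Irf9, the DNA-contacting subunit of the complex with Stat2, lies on chromosome 14 from 55603985 to 55610030. Motor cortex held 8.33, 8.92 and 9.43 at the lowest, median and highest of the EAE mice, against 8.69, 8.43, 8.79 and 8.77 in the healthy mice. EAE mouse 1 was the lowest array of all and the groups overlapped, while EAE mice 2, 4 and 5 stood above every healthy mouse. The difference was 0.26 ± 0.16 (SE, log2; 95% interval -0.08 to 0.60), with a limma adjusted p of 0.452 and an exact permutation p of 0.267.
Sensory cortex held 8.86, 9.16 and 9.69 in EAE mice, against 8.75, 8.60, 8.78 and 8.58 in healthy mice. All 6 EAE mice stood above all 4 healthy mice, with EAE mice 2 and 5 about equal at the top. The difference was 0.56 ± 0.17 (SE, log2; 95% interval 0.18 to 0.94), with a limma adjusted p of 0.125 and an exact permutation p of 0.019. It was 0.57 in cohort 1 and 0.55 in cohort 2, whereas the motor values were 0.22 and 0.30.

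Stat2, the partner that carries the activation domain of that complex, lies on chromosome 10 from 128270498 to 128292853. Its values in motor cortex were 8.29, 8.56 and 9.03 as lowest, median and highest in EAE mice, against 8.54, 8.14, 8.44 and 8.60 in healthy mice. In sensory cortex they were 8.07, 8.51 and 9.10 in EAE mice, against 8.46, 8.27, 8.68 and 8.59 in healthy mice. The groups overlapped in both regions, and EAE mouse 5 was the highest array in each. The change was 0.16 ± 0.11 (motor) and 0.06 ± 0.15 (sensory; log2, each with its SE), with 95% intervals of -0.09 to 0.41 and -0.27 to 0.38 and limma adjusted p of 0.543 and 0.862. The second Stat2 probe set gave 0.08 and 0.09.

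Irf3, the constitutive factor that starts interferon beta transcription once phosphorylated, lies on chromosome 7 from 44997648 to 45002848. It measured 10.28, 10.46 and 10.68 as lowest, median and highest in motor cortex of EAE mice, against 10.50, 10.55, 10.50 and 10.57 in healthy mice. The EAE mice were spread on both sides of the healthy mice, which lay close together. Differences were -0.07 ± 0.07 (motor) and -0.02 ± 0.06 (sensory; log2, each with its SE), with limma adjusted p of 0.684 and 0.874. The other 3 probe sets of Irf3 gave -0.15 to 0.00 in motor and -0.11 to -0.02 in sensory cortex.

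Irf5, which acts below Toll-like receptors and drives inflammatory cytokines in macrophages, lies on chromosome 6 from 29526130 to 29541869. In motor cortex it was 9.19, 9.28 and 9.49 at the lowest, median and highest of the EAE mice, against 9.07, 9.10, 9.45 and 9.45 in the healthy mice. Healthy mice split by cohort, with the cohort 1 pair low and the cohort 2 pair high in both regions on this probe set. The EAE minus healthy difference accordingly had opposite signs in the cohorts, at 0.28 in cohort 1 and -0.20 in cohort 2 for motor cortex, and at 0.24 and -0.07 for sensory cortex. With cohort in the model it was 0.04 ± 0.09 (motor) and 0.09 ± 0.08 (sensory; log2, each with its SE), with limma adjusted p of 0.871 and 0.577. The second Irf5 probe set gave 0.01 ± 0.07 in motor cortex and 0.20 ± 0.08 in sensory cortex (SE, log2), with unadjusted limma p of 0.868 and 0.0399 and adjusted p of 0.965 and 0.301 over all probe sets. Its sensory values were 7.95 to 8.37 in EAE mice, against 7.98, 7.91, 7.94 and 8.02 in healthy mice, which did not split by cohort there, and the groups overlapped.

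Irf8, the myeloid and microglial lineage factor, lies on chromosome 8 from 120736358 to 120756694. Motor values were 7.99, 8.33 and 8.62 as lowest, median and highest in EAE mice, against 8.27, 8.18, 8.30 and 8.30 in healthy mice. The sensory ones were 8.09, 8.48 and 8.88 in EAE mice, against 8.23, 8.16, 8.44 and 8.30 in healthy mice. On this probe set the EAE mice lay both above and below the narrow healthy range. The change was 0.06 ± 0.11 (motor) and 0.20 ± 0.16 (sensory; log2, each with its SE), with limma adjusted p of 0.827 and 0.518. A second Irf8 probe set gave 0.24 ± 0.07 in motor cortex (SE, log2) with an unadjusted limma p of 0.00586 and an adjusted p of 0.181 over all probe sets, and 0.18 ± 0.13 in sensory cortex. On it the 6 EAE arrays of motor cortex, at 7.18 to 7.51, all stood above the 4 healthy arrays, at 6.98 to 7.16, whereas the groups overlapped in sensory cortex.

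**Figure D2:**
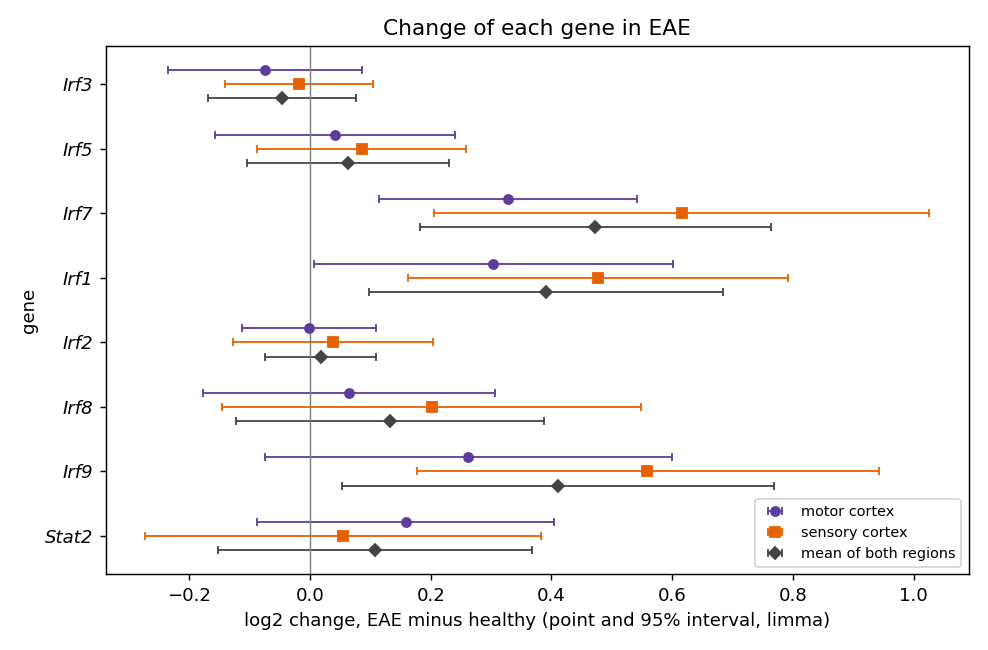
Log2 change of each gene, EAE minus healthy (horizontal axis), with its 95% interval from limma, for motor cortex (circles), sensory cortex (squares) and the mean of both regions (diamonds). The intervals of Irf7 lie above 0 in all 3 comparisons, from 0.12 at the lowest, and those of Irf1 begin at 0.01 in motor cortex; none passed the adjusted threshold.

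Counting members whose EAE arrays all stood above their healthy arrays gave 1 of 8 in motor cortex (Irf7), against 1.48% of all genes, and 2 of 8 in sensory cortex (Irf1 and Irf9), against 2.45%. In the mean of both regions it gave 2 of 8 (Irf1 and Irf7), against 3.22%. Members with all EAE arrays below the healthy arrays numbered 0 of 8 in each, against 4.19%, 4.04% and 6.93% of all genes. Averaging all probe sets of a gene gave the same counts.

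Marker genes of other cells were measured alongside. The mean of 7 microglia and macrophage markers was 9.53 to 9.76 in motor cortex of EAE mice, against 9.97 to 10.10 in healthy mice, and 9.37 to 9.89 in sensory cortex of EAE mice, against 9.87 to 10.12 in healthy mice. Of these 7 genes, P2ry12 and Itgam fell in motor cortex and P2ry12 fell in sensory cortex, and in the mean of both regions 5 of 7 fell. Aif1 went the other way without a call, at 0.07 in motor and 0.38 in sensory cortex (log2, limma adjusted p = 0.896 and 0.384). Leaving out 1 mouse at a time kept the P2ry12 call in 10 of 10 cases in motor and 7 of 10 in sensory cortex. The Itgam call in motor cortex was kept in 2 of 10. In the mean of both, P2ry12 kept its call in 10 of 10 cases, Itgam in 5, Tmem119 and Trem2 in 2 each and Cx3cr1 in 1. P2ry12, a purinergic receptor of resting microglia, averaged 9.90 ± 0.23 in EAE mice and 10.87 ± 0.12 in healthy mice in motor cortex (SD, n = 6 and 4; limma adjusted p = 0.00152). The mean of 6 neutrophil markers was 7.76 to 8.05 in motor cortex of EAE mice, against 7.14 to 7.25 in healthy mice, and 7.54 to 8.69 in sensory cortex, against 6.99 to 7.27. Of these, 3 of 6 rose in motor cortex, 1 of 6 in sensory cortex and 5 of 6 in the mean of both. The motor calls were each kept in 10 of 10 such cases, the sensory call in 4 and those in the mean of both in 6 to 10. The 3 monocyte markers averaged 7.44 to 7.75 in motor cortex of EAE mice, against 7.22 to 7.33 in healthy mice, and 7.54 to 8.31 against 7.25 to 7.36 in sensory cortex, with 0 of 3 called in either region, while F13a1 rose in the mean of both (0.37, log2; limma adjusted p = 0.00713). The 7 T cell markers averaged 7.28 to 7.39 in motor cortex of EAE mice, against 7.19 to 7.31 in healthy mice, and 7.27 to 7.66 against 7.07 to 7.33 in sensory cortex, with 0 of 7 called in either region. In the mean of both, 2 of these 7 rose, Cd3g by 0.36 and Cd2 by 0.23 (log2, limma adjusted p = 0.0412 and 0.0351). Leaving out 1 mouse at a time kept each of these 2 calls in 1 of 10 cases, and the F13a1 call in 10 of 10. The 4 markers of plasmacytoid dendritic cells, known for making type I interferon, averaged 8.43 to 8.62 in motor cortex of EAE mice, against 8.40 to 8.46 in healthy mice, and 8.61 to 8.87 against 8.54 to 8.67 in sensory cortex, with 0 called. The part of these cells in the values of Irf1, Irf7, Irf8 and Irf9 was not tested.

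The next question was whether the difference between EAE and healthy mice was the same in both regions. Each mouse gave a motor and a sensory array, so the motor minus sensory value of each mouse was compared between conditions. No gene passed this test, and 0 of 8 members did, against 0% of all genes; at an unadjusted limma p under 0.05 there were 2 members (Irf7 and Irf9), against 2.32%. Irf9 had the largest difference among the members. Its log2 motor minus sensory values were -0.53, -0.47, -0.40, -0.08, -0.23 and -0.12 in EAE mice 1 to 6, against -0.06, -0.16, 0.01 and 0.19 in healthy mice 1 to 4. Sensory cortex was thus the higher region in 6 of 6 EAE mice and in 2 of 4 healthy mice, and the 2 groups overlapped. The EAE change of Irf9 was lower in motor than in sensory cortex by 0.30 ± 0.07 (SE, log2; motor minus sensory -0.30, 95% interval -0.45 to -0.14), with a limma unadjusted p of 0.00124 and an adjusted p of 1. An exact permutation test of the same values, chosen after the data had been seen and run for all 8 members, gave p = 0.0429 for Irf9 and 0.11 to 0.69 for the other 7, while 2.44% of all genes were under 0.05.
For Irf7 the difference was -0.29 ± 0.13 (SE, log2), with an adjusted limma p of 1 and an exact permutation p of 0.11. Sensory cortex was higher in 5 of 6 EAE mice and in 1 of 4 healthy mice. Irf1 gave -0.17 ± 0.09 and Stat2 gave 0.10 ± 0.12 (SE, log2), with adjusted limma p of 1 for both.

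Within EAE mice alone, Irf9 was lower in motor than in sensory cortex by 0.30 ± 0.07 (motor minus sensory -0.30, SE, log2), with the mouse as a block and a limma adjusted p of 0.0143. It was the 1 of 8 members called in that comparison, against 6.71% of all genes, and 0 of 8 were called in healthy mice by limma, against 3.94%. At an unadjusted limma p under 0.05 there were 3 members in EAE mice, against 18.8% of all genes, and 0 in healthy mice, against 14.9%. Irf9 averaged 8.93 ± 0.39 in motor and 9.23 ± 0.37 in sensory cortex of EAE mice (SD, n = 6 each), and 8.67 ± 0.16 in motor and 8.67 ± 0.10 in sensory cortex of healthy mice (SD, n = 4 each). The call ended when EAE mouse 2 was left out (-0.27, adjusted p of 0.0557 in limma) and when the block was omitted (adjusted p of 0.413). A call in EAE mice and none in healthy mice does not show that the conditions differ, and the test of that difference is the one above.

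**Figure D3:**
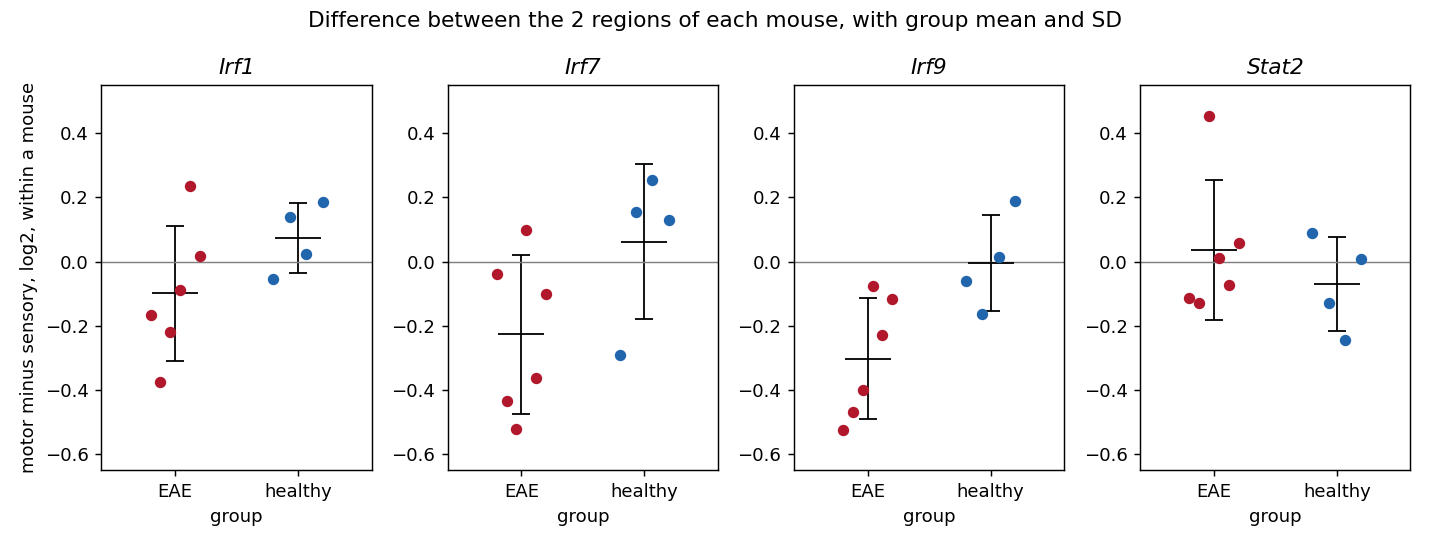
Motor minus sensory log2 expression within each mouse (vertical axis) for Irf1, Irf7, Irf9 and Stat2, with EAE mice (red, n = 6) left of healthy mice (blue, n = 4) and the group mean and SD in black. All 6 EAE values of Irf9 lie below 0, from -0.53 to -0.08, and the healthy values run from -0.16 to 0.19.

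EAE mice 2 and 5 held the 2 highest means over both regions for 5 of 8 members, namely Irf1, Irf7, Irf8, Irf9 and Stat2. In sensory cortex Irf7 stood above the healthy mean by 0.95 in EAE mouse 2 and 1.10 in EAE mouse 5, against 0.29 to 0.71 in the other 4 EAE mice. The same 2 mice were 1.02 and 0.98 above the healthy mean for Irf9, against 0.18 to 0.51 in the others. EAE mouse 5 had grade 3.50, and so had EAE mouse 6, which was only 0.29 above the healthy mean for Irf7 and 0.21 for Irf9.
Grade was set against each member over the 6 EAE mice, with exact permutation p-values over 720 pairings, two-sided, whose smallest value is 0.00139. None of the 8 correlations passed at an adjusted p under 0.05. Stat2 had Pearson's r = 0.64 (exact permutation p = 0.167, adjusted 0.64) and Spearman's rho = 0.68 (p = 0.156, adjusted 0.504). Irf9 had r = 0.51 (exact permutation p = 0.311, adjusted 0.64) and rho = 0.53 (p = 0.3, adjusted 0.6). EAE mice 1, 5 and 6 lay equally far from the median grade, and, in a comparison added after the data had been seen, the coefficients depended on which 2 of these 3 were left out. Stat2 then had r = 0.12, 0.98 or 0.84, and Irf9 had r = -0.42, 0.81 or 0.90, without mice 1 and 5, mice 1 and 6, or mice 5 and 6.
Of 28 pairs of members correlated over the same 6 mice, 0 passed after adjustment. Irf1 and Irf9 came closest, with r = 0.93 (exact permutation p = 0.00278, adjusted 0.0778) and rho = 0.94 (p = 0.0167, adjusted 0.272), and r = 0.75 without the 2 mice farthest from the median of Irf1. Irf7 and Irf9 had r = 0.89 (exact permutation p = 0.0236, adjusted 0.194) and rho = 0.89 (p = 0.0333, adjusted 0.272). Without the 2 mice farthest from the median of Irf7, r was 0.32. Few mice over a narrower range then remained, so that value cannot decide whether the relation rests on those 2.

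**Figure D4:**
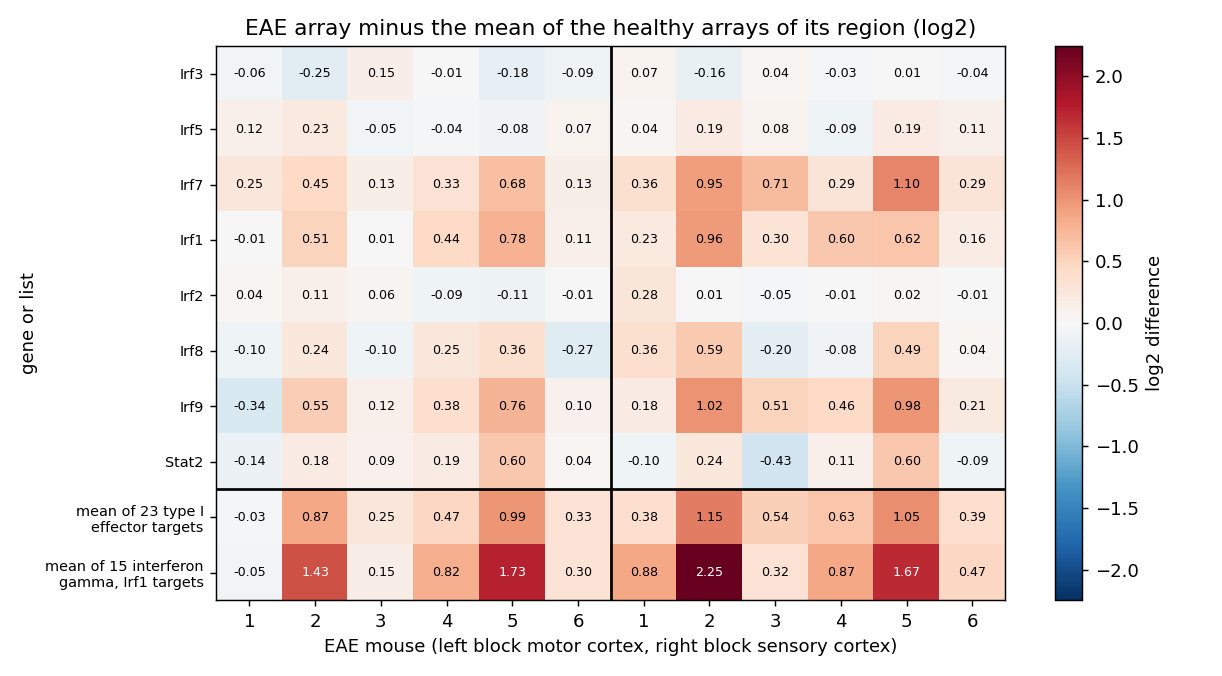
Difference of each EAE array from the mean of the healthy arrays of its region (log2, colour and printed value), for the 8 genes and for the means of 2 target lists (rows) in EAE mice 1 to 6 (columns; motor cortex left, sensory cortex right). Mice 2 and 5 carry the highest values for Irf7 and Irf9 in both regions, up to 1.10, and mouse 1 in motor cortex is below 0 for Irf9 and for both target lists.

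Target genes of these factors were taken from lists chosen with earlier results of these data known, so their counts are descriptions. Of 23 measured type I interferon effector targets, 1 rose in motor cortex and 4 rose in sensory cortex, and none fell; the median log2 change was 0.44 and 0.59, against -0.01 and 0.00 over all genes. Isg20, an antiviral exonuclease, averaged 7.75 ± 0.12 in EAE mice and 7.40 ± 0.10 in healthy mice in motor cortex (SD, n = 6 and 4; log2 change 0.36, limma adjusted p = 0.0301). In sensory cortex Ifi27l2a rose by 1.45 (log2), to 9.02 ± 0.46 in EAE mice, against 7.57 ± 0.37 in healthy mice (SD; limma adjusted p = 0.0213). Lgals3bp, a secreted glycoprotein, rose by 1.14 there (limma adjusted p = 0.0302), Ifit3 by 1.18 (0.0441) and Ifit1 by 1.05 (0.0464), Ifit3 and Ifit1 being antiviral proteins of the family that recognises foreign RNA. In the mean of both regions 6 of 23 rose, which were these 5 and Ifitm3, a membrane protein that restricts viral entry, at 0.97 (log2; limma adjusted p = 0.0465, kept in 2 of 10 cases that left out 1 mouse). Within the regions, leaving out 1 mouse at a time kept the Ifi27l2a call in 7 of 10 cases, the Lgals3bp and Isg20 calls in 4 of 10 each, and the Ifit3 and Ifit1 calls in 3 of 10 each; healthy mice 2, 3 and 4 were each among those whose absence ended all 5 calls, and the highest adjusted p was 0.164. The mean of the 23 genes was 8.55 to 9.57 in motor cortex of EAE mice, against 8.54 to 8.62 in healthy mice, and 9.02 to 9.80 in sensory cortex, against 8.55 to 8.85. EAE mouse 1 lay within the healthy range in motor cortex, and mice 2 and 5 were the highest in both regions, as they were for Irf7 and Irf9.
The motor minus sensory difference of the EAE change was below 0 for 23 of 23 of these targets, with a median of -0.23, against -0.01 over all genes, and 0 of 23 passed. Irf9 at -0.30 and Irf7 at -0.29 were below that median.

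Among 15 measured targets of interferon gamma and Irf1, 0 were called in motor cortex and 1 in sensory cortex. That gene was Ciita, the master activator of MHC class II genes, at 7.42 ± 0.07 in EAE mice and 7.15 ± 0.02 in healthy mice (SD, n = 6 and 4; log2 change 0.28, limma adjusted p = 0.0235, kept in 5 of 10 cases that left out 1 mouse). In the mean of both regions Nlrc5, an activator of MHC class I genes, and Cxcl10, a chemokine for T cells, rose by 1.24 and 1.13 (log2; limma adjusted p = 0.045 and 0.0479; kept in 3 and 4 of 10 such cases). The median change of the list was 0.72 in motor and 1.13 in sensory cortex, larger than that of any member, yet the EAE mice ranged from 8.31 to 10.09 in motor cortex, against 8.32 to 8.48 in healthy mice.

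Of 10 measured interferon ligands and receptors, 0 rose and 1 fell in each region. Il10rb, a receptor chain shared by interferon lambda and interleukin 10, was 9.56 ± 0.12 in EAE mice and 9.88 ± 0.05 in healthy mice in motor cortex (SD, n = 6 and 4; limma adjusted p = 0.0361, kept in 2 of 10 cases that left out 1 mouse). Ifngr2, the second chain of the interferon gamma receptor, fell by 0.26 (log2) in sensory cortex (limma adjusted p = 0.0423, kept in 2 of 10). Ifnar1, a chain of the type I receptor, fell by 0.18 in the mean of both regions (limma adjusted p = 0.0312, kept in 3 of 10). Ifnb1, the interferon beta gene, had 0.16 in each region and did not pass. Among 7 brakes, Usp18, which blocks the type I receptor, had changes of 0.82 in motor and 1.12 in sensory cortex that did not pass (limma adjusted p = 0.141 and 0.0571) and rose by 0.97 in the mean of both (0.047, kept in 2 of 10).
Of 8 measured STAT and Janus kinase genes 0 were called in either region, and Stat3 had the highest change, 0.19 in motor and 0.18 in sensory cortex (log2; limma adjusted p = 0.286 and 0.253). Of 17 sensors and adaptors upstream of Irf3, Irf5 and Irf7, 0 were called; Ddx58, the RNA sensor RIG-I, had changes of 0.25 and 0.31 that did not pass (adjusted p = 0.153 and 0.193 in limma). Of 4 measured relatives and binding proteins of the IRF family 0 were called, with Irf4 at 0.05 and -0.09. Of 7 partners of Irf8 and microglial transcription factors 0 were called; Spi1, the PU.1 partner of Irf8, was at 0.04 and 0.11, and Batf3, a partner in dendritic cells, at -0.33 and -0.08.

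Likeness was measured as Pearson's r over the 20 arrays after each value had its group mean subtracted, so that a difference between group means did not count. The spread among EAE mice remained, in which mice 2 and 5 stood highest for Irf1, Irf7, Irf8, Irf9 and Stat2. Its part in the coefficients was not tested. The arrays are pairs from 10 mice, and the coefficients describe these arrays only. Irf1 was most like Ifi47 (r = 0.95), Gbp6 (0.94) and Gm4951 (0.93). Irf9 was most like Parp9 (0.95), Rnf213 (0.94) and Fcgr4 (0.94), and Irf7 most like Oas1a (0.86), Hcar2 (0.85) and Apobec1 (0.85). The nearest genes to Irf8 were Ifih1 (0.87), Epsti1 (0.86) and Col6a1 (0.86), and those to Stat2 were Hnrnpll (0.90), Ptgs2 (0.87) and Sh2b3 (0.87). Irf3 had Lman2 (0.90), Tmem44 (0.89) and Utp25 (0.89), Irf5 had Rpl27a (0.88), Gm29722 (0.87) and Tes3-ps (0.86), and Irf2, with the lowest leading coefficient, had Ipo8 (0.80), Cbll1 (0.79) and Shc4 (0.77). Of the 28 pairs of members, the highest by the same measure were Irf1 and Irf9 (r = 0.82), Irf7 and Irf9 (0.77), Irf9 and Stat2 (0.75) and Irf8 and Stat2 (0.73), and the lowest was Irf1 and Irf3 (-0.63).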

How the data were processed

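Gene expression was measured on Affymetrix arrays of motor and sensory cortex from 10 mice. The values were deposited by the authors as log2 expression per probe set; the submitters' processing notes list RMA and Partek without a version. RMA compresses small differences at low signal. No raw scans were used, and probe positions were not used. Of 45101 probe sets, 34958 had 1 gene symbol in the platform annotation, 932 had several and 9211 were not listed; the brightest probe set per gene gave 18194 genes. Symbols were checked against RefSeq GRCm38.p6 (34754 matched, 0 changed), which also gave gene positions and promoters (11 windows for 8 members).

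Regions were fitted separately with limma 3.58.1 in R 4.3.3 (lmFit, eBayes, two-sided, cohort as covariate, Benjamini-Hochberg adjustment over all genes); adjusted p-values of single genes are limma's. The mean of a mouse's 2 arrays served for both regions together, and its motor minus sensory value for the difference; motor against sensory cortex used the mouse as a block, since the labels tie those arrays to 1 animal. Single values were also tested by exact permutation over 210 splits. Genes named are the 8 members, the genes called in any comparison of EAE with healthy mice from each pathway list with at most 4 more of smallest p in a comparison, and the 3 genes most like each member. Cell type markers named were called in such a comparison, except Aif1. Of 102 pathway entries 91 were measured, and of 60 marker entries 53. Members and lists were chosen with earlier results of these data known. The fits were tested on simulated data. Alternatives were cohort, scaling, probe set, filter, variance prior and left-out arrays. The 2 arrays of the second processing day were both of healthy mice. Day was therefore partly confounded with condition, and these arrays could only be left out.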

Additional observations from a re-analysis of the deposited data

Results flagged for a closer look

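In sensory cortex, Irf2 of EAE mouse 1 stood apart from the other EAE mice, at 8.96 on the log2 scale against 8.64 to 8.71 in the other 5. Of 32 groups of member values examined in this way 1 was found, and chance gives about 1 in 20.

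The EAE minus healthy change of Irf9 was lower in motor than in sensory cortex, by -0.297 on the log2 scale (motor minus sensory), with an exact permutation p of 0.0429 in a test chosen after the data had been seen. It was the 1 of 8 members under 0.05 there, against 2.44% of all genes, and the limma adjusted p over all genes was 1.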

How the results depend on the processing

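Of 820 values of the 8 members under the alternatives, 760 kept their direction and their side of the threshold, 51 changed sign (24 of them Irf2, 11 Irf5), 7 newly passed and 2 no longer passed; of 921 values of called pathway and marker genes 508 kept their call, 413 lost it and 0 changed sign. The cause was not tested for any of these. The number of genes called for EAE against healthy mice was 410 in motor cortex, 438 in sensory cortex and 1431 in the mean of both. It moved in fits with fewer arrays and in some that kept all arrays, such as a replicate block on mouse number (5, sensory cortex). In motor cortex it was 9 in cohort 1 alone, 16 in cohort 2 alone and 194 without the second processing day, and 145 to 470 when 1 mouse was left out. In sensory cortex it was 0 and 141 in the cohorts alone, 118 without the second day, 795 with only genes above the median level, 800 with a trended robust prior, 260 with every probe set by itself and 19 to 1009 when 1 mouse was left out. In the mean of both regions it was 0 and 574 in the cohorts alone and 472 to 1813 when 1 mouse was left out. Without the second day, which left out healthy mice 1 and 4, it was 6.

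Members called in the mean of both regions numbered 0 as reported, 1 with no cohort term, 1 with the mean of all probe sets, 1 with a trended robust prior, 2 with 20 arrays and the mouse as a random block (Irf7, adjusted p 0.0144 in limma, and Irf1, 0.0253), and 0 to 1 when 1 mouse was left out (Irf7, without EAE mouse 1 at 0.51 or EAE mouse 6 at 0.53). The fit with the random block used 1 correlation between a mouse's arrays, 0.205, for every gene. For a gene whose own correlation is higher, the p-value would be too small. This was not tested for Irf7 or Irf1. In EAE mice, motor against sensory cortex gave 0 called members with no replicate block and 0 to 1 when 1 mouse was left out. In healthy mice it gave 263 to 914 called genes when 1 mouse was left out, against 716 as reported. As reported, 7.87% of all genes were called in the mean of both regions and 6.71% between the regions of EAE mice. Shares for each alternative fit are not given here, so these member counts are not compared with all genes.

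EAE and healthy mice that share a number are different animals. Their arrays deviated together with correlations of 0.02 to 0.29 in motor and -0.25 to 0.40 in sensory cortex. The motor and sensory arrays of 1 mouse gave -0.03 to 0.59 by the same measure. These ranges overlap, so the correlations cannot decide whether the numbers pair the mice. A replicate block on that number gave 5 called genes in sensory cortex, 919 in the mean of both regions, and values of 0.028 for Irf2 in motor cortex, -0.045 for Stat2 in sensory cortex and 0.009 for Irf5 in the difference between regions.

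Sign changes of values near 0 were as follows, all log2. Irf2 in motor cortex was 0.015 with centred arrays, 0.033 with quantile normalization, 0.018 in cohort 1, 0.006 without the second day and -0.022 to 0.011 without 1 mouse. Elsewhere Irf2 was -0.02 (sensory), -0.013 (both) and 0.074 (difference) without the second day, -0.007 in cohort 2 (both) and 0.011 with quantile normalization (motor minus sensory, healthy). Without 1 mouse it ran from -0.02 to 0.082 (sensory), -0.005 to 0.032 (both), -0.104 to 0.031 (difference) and -0.078 to 0.039 (motor minus sensory, healthy). Irf3 was 0.0, 0.042 and 0.025 in sensory cortex with centred arrays, quantile normalization and cohort 1, 0.008 in both with quantile normalization, 0.003 in the difference with the mean of probe sets, and -0.044 to 0.01 in sensory cortex without 1 mouse. Irf5 in cohort 2 was -0.195 (motor), -0.067 (sensory) and -0.131 (both), and 0.038 in cohort 1 (difference). Without 1 mouse it ran from -0.019 to 0.095 (motor), -0.072 to 0.004 (difference) and -0.008 to 0.061 (motor minus sensory, EAE). Without 1 mouse Stat2 ran from -0.036 to 0.133 (sensory) and -0.049 to 0.068 (motor minus sensory, EAE). Irf8 was 0.013 in cohort 2 (difference). Motor minus sensory values in healthy mice without 1 mouse were -0.044 to 0.018 for Irf8, -0.003 to 0.18 for Irf7 and -0.071 to 0.047 for Irf9, which was 0.008 with quantile normalization.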
